A study of Mus musculus with 35 samples.

Results

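The mRNAs of 10 feeding-related peptide genes outside the melanocortin, orexin and melanin-concentrating hormone systems were followed in the mouse hypothalamus, namely Gal, Nts, Penk, Tac1, Cck, Adcyap1, Bdnf, Nucb2, Nmu and Rln3. They were taken by gene name, 10 of the 49568 gene names counted, and 9 of them, all but Nmu, held enough reads to be among the 18063 genes tested. The series holds hypothalamic polyA RNA of 35 male mice (strain B6/J), 1 library per mouse, all collected at Zeitgeber time 16, which is 16 h after lights-on. Control mice had free access to food (n = 10) or had none from lights-on, a fast of 16 h (n = 10). PER2-S662D mice, whose clock repressor PER2 carries an aspartate at a serine that is otherwise phosphorylated, were fed (n = 5) or fasted (n = 5), and mice labelled Per2 knockout were fasted only (n = 5). The sources used here give no promoter, Cre or cell type for either Per2 allele. The tissue was a block cut by stereotaxic coordinates, so it can hold cells of neighbouring regions, and in such bulk tissue fewer cells of a type and less RNA per cell cannot be told apart.

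Neuropeptides are made as large precursors, cut by prohormone convertases in dense-core vesicles and released to act on G protein-coupled receptors, and the level of a precursor's mRNA is a common readout of demand on its neurons. Several of these genes are known for opposite actions on intake: galanin, enkephalin and relaxin-3 promote feeding in rodents, whereas cholecystokinin, neurotensin, PACAP, neuromedin U, nesfatin-1 and brain-derived neurotrophic factor reduce it. Their neurons lie in different places, among them the lateral, arcuate, paraventricular and ventromedial hypothalamus, and for relaxin-3 mainly in the nucleus incertus of the pons, with smaller groups in the midbrain.

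Total counts ran from 17959586 to 37027342 per library, with the deepest libraries in the S662D groups. All 12 markers of hypothalamic neurons were present, with summed levels of 539.5 to 784.5 CPM (TMM-scaled counts per 1000000) over the 35 libraries, and markers of cortex, striatum, thalamus and midbrain or hindbrain were detected as well. Per2 itself was lower in S662D than in control mice, with a log2 fold change of -0.59 when fed (SE 0.07, edgeR adjusted p = 1.173e-07) and -0.55 when fasted (SE 0.07, adjusted p = 6.753e-07). It was not lower in the labelled knockout, at 30.2 ± 1.99 CPM (SD, n = 5) against 29.0 ± 2.44 (n = 10) in fasted controls. Counts over the whole gene could not check the labelled genotype, so those libraries are called the libraries labelled Per2 knockout throughout. Library numbers of controls 1 to 5, controls 6 to 10, the labelled knockout and S662D form separate ranges, so genotype and library set cannot be told apart for the last 2 groups. Fed and fasted S662D replicates 2, 3 and 4 further carry an additional final digit in that number, whose meaning is not given in the sources used here. Marker sums of cortex, striatum, thalamus, endothelium and microglia were higher in these 6 libraries than in the other S662D libraries of the same feeding state, with no overlap. For cortex they were 966.1 to 988.9 against 810.6 to 833.3 CPM fed and 903.2 to 940.2 against 799.5 to 844.7 CPM fasted, and for thalamus 1273 to 1526 against 1131 to 1144 CPM and 1329 to 1402 against 1168 to 1234 CPM. Hypothalamic neuron markers were lower with the digit in the fasted libraries, at 556.4 to 739.7 against 742.7 to 765.3 CPM, and overlapped in the fed ones. Midbrain and hindbrain marker sums were lower with the digit in the fed libraries and higher with it in the fasted ones, with no overlap in either state.

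Because the series altered a clock repressor, the promoters of the peptide genes were read for the E-box CACGTG, the element that CLOCK and BMAL1 bind and PER proteins repress. The nuclear receptor half-site AGGTCA, to which ROR and REV-ERB factors bind, and the cyclic AMP response element TGACGTCA were searched as well, on both strands of the 250 bases before each RefSeq start site (GRCm38.p6). RefSeq windows, 16 in all and 7 of them for Bdnf, were matched for 9 of the 10 genes, and Penk is named only. The E-box lay in 3 of the 16 windows, those of Tac1, Cck and Nmu, against 6.02% of all 32851 windows, and it ended 55, 60 and 51 bases before the start site, respectively. The half-site occurred in 3 of the 16 windows, a share near the 14% of all windows: in Rln3 at 2 places, 109 and 65 bases before the start, in Nmu and in 1 of the Bdnf windows. None of the 9 genes with a window held the cyclic AMP element, which was in 1.55% of all windows, and Penk was not searched. The stretches around the matches are given 5′ to 3′ on the gene's strand, to show how the shared E-box core sits in different flanks, with the matched letters in capitals; a match is a description of the letters only. They lie at chr6:7554988-7555017 (plus strand, inside the Tac1 gene of the count tables), chr9:121495743-121495772 (minus), chr5:76363817-76363846 (minus) and chr8:84045010-84045129 (minus).
Tac1: tggggagagtgtCACGTGgctctacaggct
Cck: gctgcctctgagCACGTGtcctgctggact
Nmu: gccagcccagccCACGTGtgcgccagattt
Rln3: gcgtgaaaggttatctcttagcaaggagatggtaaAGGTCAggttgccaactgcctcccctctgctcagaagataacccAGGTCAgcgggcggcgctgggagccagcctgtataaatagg

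Compared per length, Cck was the most abundant of these mRNAs, at 217 ± 22.5 TPM (counts per exon length, scaled to 1000000; SD, n = 35), which put it at percentile 98.6 of the detected genes. Penk followed at 82.0 ± 9.57 TPM, Adcyap1 (PACAP) at 59.8 ± 5.13, Gal at 56.1 ± 10.0, Tac1 (substance P and neurokinin A) at 34.7 ± 2.99 and Nts at 29.2 ± 6.77. Nucb2, the precursor of nesfatin-1, had 16.5 ± 2.01 TPM, Rln3 8.24 ± 5.43, Bdnf 7.99 ± 1.07 and Nmu 0.584 ± 0.355. The lowest Cck library (169 TPM) lay above the highest Penk library (99.2 TPM), and the lowest Bdnf library above the highest Nmu library, whereas all other neighbours in this order overlapped over libraries. Rln3 exceeded Bdnf in 16 of 35 libraries.

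**Figure D1:**
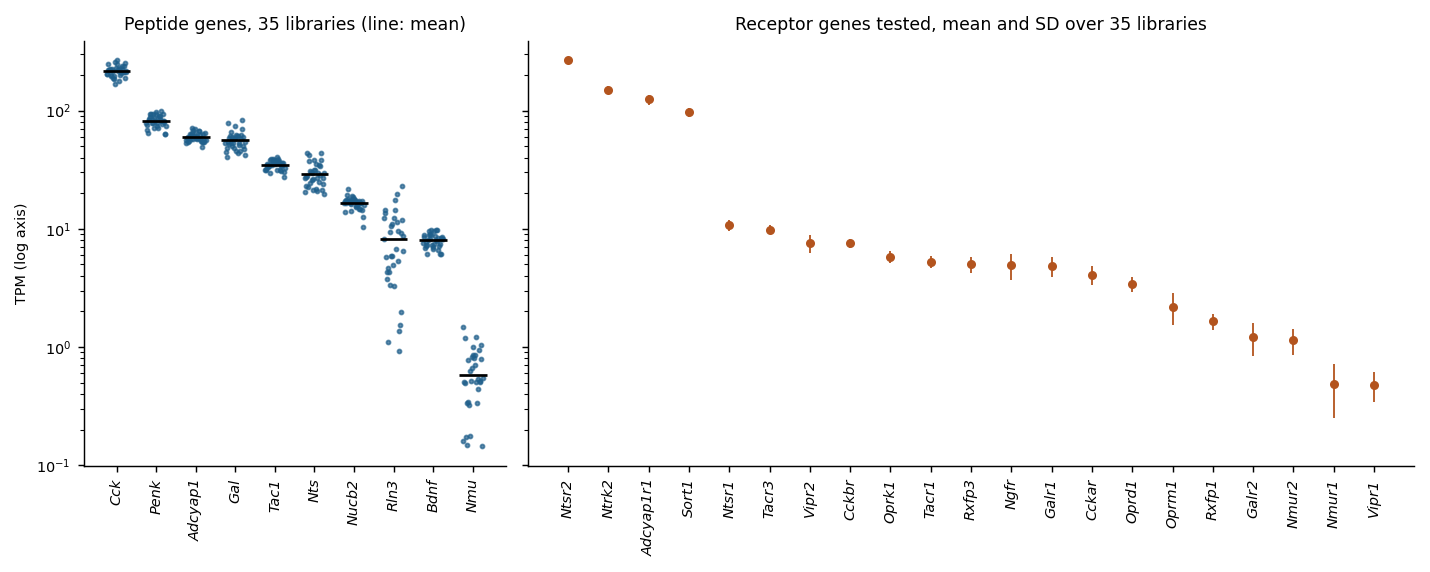
Left, level of each peptide gene in TPM (log axis), 1 point per library and a line at the mean over 35 libraries; Nmu is drawn for the 33 libraries with a count. Right, mean and SD over 35 libraries of the 21 receptor genes tested; Cck stands highest among the peptides (217 TPM) and Ntsr2 among the receptors (268 TPM).

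Rln3 was also the most variable of them. Its biological coefficient of variation, the replicate spread left after counting noise, was 0.54 (percentile 99.4 of the genes tested), against 0.19 for Nts, 0.14 for Gal, 0.12 for Bdnf and 0.065 to 0.092 for Cck, Nucb2, Penk, Tac1 and Adcyap1. A given fold change was therefore harder to call for Rln3 than for Tac1.

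Over 7 comparisons, 3 of the 63 tests of these genes passed edgeR's quasi-likelihood test at an adjusted p below 0.05 (Benjamini-Hochberg over all genes tested). Rln3 rose on fasting in S662D mice and was lower in fed S662D than in fed control mice, and Tac1 was higher in the libraries labelled Per2 knockout than in fasted S662D mice. Fasting in controls called 0 of 9 members, where 3.88% of all genes were called, and Tac1 had the lowest adjusted p (0.054). Fasting in S662D called 1 of 9 (2.64% of all genes), S662D against control 1 of 9 fed (4.68%) and 0 of 9 fasted (5.57%). The labelled knockout differed from fasted controls in 0 of 9 (0.0277% of all genes) and from fasted S662D mice in 1 of 9 (7.32%). The difference between the fasting responses of S662D and control mice called 0 of 9 members and 0% of all genes, with 1150 genes, Rln3 among them, at an unadjusted p below 0.05. At an unadjusted p below 0.05 there were 2 of 9 members (Tac1 and Adcyap1) for fasting in controls, beside 2402 of all 18063 genes. There were 3 of 9 (Tac1, Nucb2 and Penk) for S662D against controls in the fasted state, beside 3757 of all genes. For the labelled knockout against controls there were 0 of 9, beside 1095 of all genes. DESeq2 called 1 member (Tac1) in the first of these 3 comparisons and 0 in the other 2, and 0 in the difference between responses. Over all genes it called 4.54%, 7.48% and 0.0388% in these 3, and 0% in the difference. These comparisons share groups, so their values are not independent of each other.

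**Figure D2:**
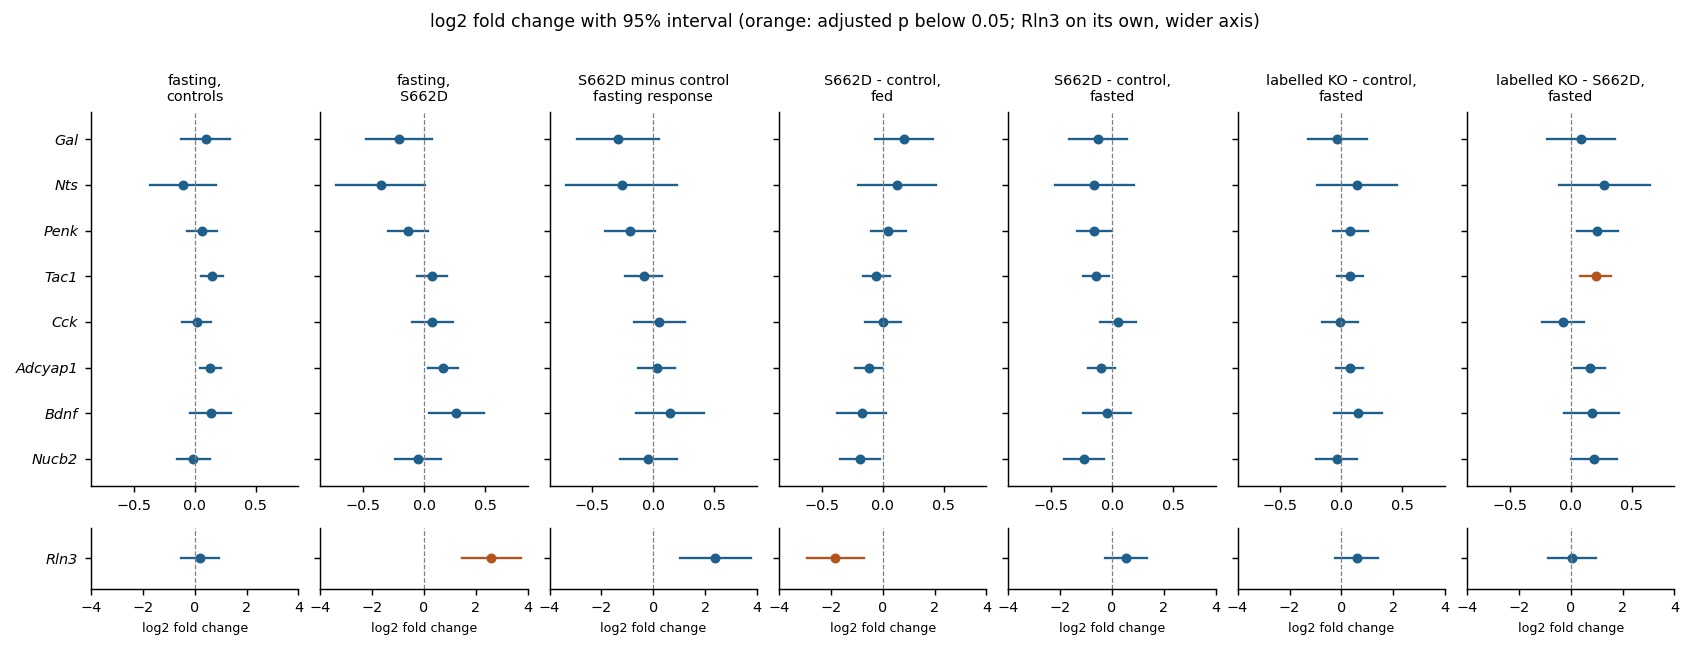
log2 fold change (point) and 95% interval (line) of the 9 tested peptide genes in the 7 comparisons; Rln3 has its own, wider axis, and orange marks an adjusted p below 0.05. Except for Rln3, every point lies between -0.36 (Nts, fasting in S662D) and 0.28 (Nts, labelled knockout against S662D).

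Relaxin-3, encoded by Rln3 (chr8:84042929-84045000, minus strand, mm10), acts mainly through the receptor RXFP3 and raises food intake when given into the rat brain. In fed S662D mice the 5 libraries held 1.21, 0.324, 0.221, 0.358 and 0.457 CPM. In fasted S662D mice they held 2.34, 5.91, 3.07, 2.17 and 1.63 CPM. The lowest fasted library thus lay above the highest fed one. The other members overlapped between fed and fasted S662D libraries, and the share of all genes without overlap was not counted. The rise was 6.05-fold, or 2.60 on the log2 scale (SE 0.56, 95% interval 1.45 to 3.74, adjusted p = 0.005032, edgeR). It was called in each of the 10 fits that left out 1 library, with adjusted p from 0.002585 to 0.0342. Within the 6 libraries with the additional digit it was 3.57 (SE 0.74, adjusted p = 0.003975), and within the 4 without it 1.24 (SE 0.85, adjusted p = 0.9985).

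In control mice Rln3 did not pass the test between feeding states. Fed controls ranged from 0.259 to 3.59 CPM (median 1.23) and fasted controls from 0.777 to 4.19 CPM (median 1.93), and the fold change was 0.21 in log2 units (SE 0.36, adjusted p = 0.8983). Its sign differed between the 2 control sets. It was -0.63 (SE 0.39, adjusted p = 0.3577) in replicates 1 to 5 and 1.44 (SE 0.48, adjusted p = 0.1255) in replicates 6 to 10. All fed controls of replicates 1 to 5 (1.38 to 3.59 CPM) lay above all of replicates 6 to 10 (0.259 to 1.08 CPM), although both carry the same label. The difference between the S662D and control responses was 2.38 (SE 0.67, unadjusted p = 0.001276, adjusted p = 0.7598); against control replicates 1 to 5 alone it was 3.23 (adjusted p = 0.01102) and against replicates 6 to 10 alone 1.16 (adjusted p = 0.9878).

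Fed S662D mice had 0.515 ± 0.400 CPM of Rln3 (SD, n = 5) against 1.78 ± 1.19 (n = 10) in fed controls, a ratio of 0.281 or -1.83 on the log2 scale (SE 0.54, adjusted p = 0.04605). All 5 fed S662D libraries were below the control median, and the ranges overlapped. This call was near the threshold. It was lost without control fed replicate 1, 2, 3, 4 or 5 and without S662D fed replicate 2, 3, 4 or 5, where the log2 value stayed between -1.86 and -1.66 and the adjusted p between 0.05318 and 0.1795. Against control replicates 1 to 5 alone it was -2.44 (adjusted p = 0.003843) and against replicates 6 to 10 alone -0.80 (adjusted p = 0.6171), so its size followed the control set used. In the S662D libraries without the additional digit it was -1.07 (adjusted p = 0.9991), and with the digit as a term in the fit -1.97 (adjusted p = 0.4639). Fasted, the S662D mice (3.02 ± 1.69 CPM) and the libraries labelled Per2 knockout, at 3.64, 1.99, 4.67, 2.88 and 2.33 CPM, were higher on average than fasted controls (2.04 ± 1.08 CPM) without passing the test (adjusted p = 0.4644 and 0.8687).

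Summed markers of the midbrain and hindbrain partly moved with Rln3. Their 10 genes include the dopamine transporter Slc6a3 and tyrosine hydroxylase Th, both of which hypothalamic dopamine neurons also express. These 2 held most of the sum, with means of 61.6 and 48.2 of 134.7 CPM in fed controls. There Slc6a4, Tph2 and Fev averaged 0.0523, 0.354 and 0.222 CPM. En1, En2, Pitx3, Chrna6 and Slc5a7 averaged 2.99, 2.89, 0.984, 10.1 and 7.23 CPM in fed controls. In fed S662D mice these genes averaged 1.93, 2.32, 0.661, 6.24 and 7.38 CPM, in the same order. In fasted S662D mice the averages were 3.85, 3.30, 1.24, 10.5 and 8.42 CPM. Fed S662D libraries summed to 212.6 CPM in replicate 1, 100.2 CPM in replicate 5 and 49.2 to 72.8 CPM in those with the additional digit. In fasted S662D libraries with the digit the sum was 169 to 223.3 CPM. Without it the sum was 111.3 to 145.9 CPM, within the fed range without the digit. In fed controls it was 141.7 to 219.5 CPM for replicates 1 to 5 and 67.1 to 133.8 CPM for replicates 6 to 10, the same split as for Rln3. Fasted controls ranged from 81.5 to 192.1 CPM and the labelled knockout from 128.1 to 223.1 CPM. None of the 10 genes was at 0 in every library of a group, Slc6a4 was at 0 in both fed S662D libraries without the digit, and of the 8 that were tested 0 were called in any comparison. In S662D mice all 8 had a positive fasting value, with a median of 0.70 on the log2 scale against 0.00 over all genes, and in fed S662D against fed control mice 7 of 8 had a negative value. Oligodendrocyte markers moved the same way. Their 4 genes summed to 6767 to 8108 CPM in fed and 8165 to 8788 CPM in fasted S662D libraries, and to a mean of 8563 CPM in fed control replicates 1 to 5 and 7627 CPM in replicates 6 to 10, whose ranges overlapped. On fasting in S662D mice all 4 had a positive value and Mobp was called (0.40, SE 0.06, adjusted p = 2.037e-05, edgeR). Fasting raised Mobp in controls too, from 1322 ± 118 to 1470 ± 79.3 CPM (adjusted p = 0.02847, edgeR), where the other 3 had a negative value. Its mean was 1583 CPM in the fasted labelled knockout. In fed S662D against fed control mice all 4 had a negative value and Mobp was among those called (-0.21, SE 0.05, adjusted p = 0.01739, edgeR). The mitochondrial share of counts was 6.24% to 6.82% in fed and 6.846% to 8.266% in fasted S662D libraries, again with no overlap. The part of these markers and of the mitochondrial share in the Rln3 results was not tested.

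**Figure D3:**
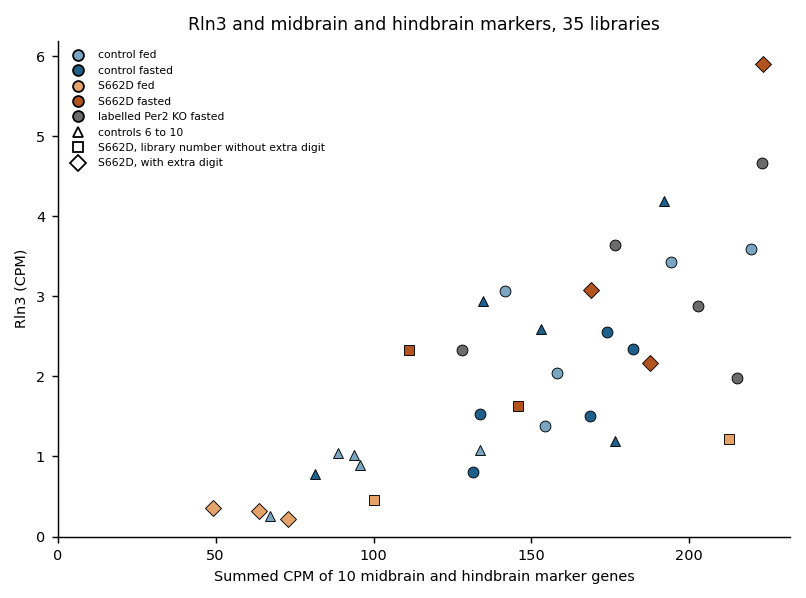
Rln3 (CPM) against the summed CPM of 10 midbrain and hindbrain marker genes, mostly Slc6a3 and Th. Each point is 1 library, coloured by group and shaped by library set. The 3 fed S662D libraries with the additional digit lie at the lower left (49.2 to 72.8 CPM of markers, at most 0.358 CPM of Rln3), and fasted S662D replicate 2 at the upper right (223.3 and 5.91 CPM).

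Tac1 (chr6:7554879-7565834, plus strand) encodes the tachykinins substance P and neurokinin A. In the libraries labelled Per2 knockout it was at 55.1, 50.2, 49.3, 49.0 and 49.0 CPM, and in fasted S662D mice at 47.0, 49.3, 38.1, 40.4 and 44.1 CPM. Each of the former lay above the S662D median, although the ranges overlapped. The difference was 0.20 on the log2 scale (SE 0.06, 1.15-fold, adjusted p = 0.03646). It was not called without labelled knockout replicate 1 (0.17, adjusted p = 0.1051) or 2 (0.21, 0.06617), without S662D fasted replicate 3 (0.16, 0.1317) or 4 (0.18, 0.1227), or with the additional digit as a term (0.14, adjusted p = 0.417). In the same comparison 8 of 12 hypothalamic neuron markers had a positive value, with a median of 0.16, and Hcrt (0.45, adjusted p = 0.01582) and Pmch (0.46, adjusted p = 0.04047) were higher in the labelled knockout. Thalamic markers had a negative value in 7 of 7, with 2 past the threshold, and endothelial markers were lower in 3 of 3. Their part in the result was not tested.

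In control mice Tac1 was 45.7 to 51.6 CPM (median 47.2) fasted and 37.6 to 49.4 CPM (median 43.0) fed. All 10 fasted libraries were above the fed median. The difference of 0.15 in log2 units (SE 0.05, 95% interval 0.06 to 0.24) missed the threshold at an adjusted p of 0.054. Leaving out control fed replicate 4 (0.16, adjusted p = 0.03156) or 10 (0.17, 0.02112), or control fasted replicate 6 (0.15, 0.04829) or 8 (0.15, 0.04916), brought it below, as did DESeq2 (0.14, adjusted p = 0.04175). In S662D mice the fasting value was 0.07 (95% interval -0.06 to 0.19), and the difference between the responses was -0.08 (95% interval -0.23 to 0.08).

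Adcyap1 (chr17:93199422-93205485, plus strand) encodes PACAP, a peptide abundant in the ventromedial nucleus. Its fasting values were 0.13 (SE 0.04, adjusted p = 0.1053) in controls and 0.16 (SE 0.06, adjusted p = 0.2096) in S662D mice, neither past the threshold. Fed S662D libraries were at 43.7, 42.5, 38.2, 41.4 and 48.6 CPM and fasted ones at 45.3, 47.9, 45.8, 53.5 and 46.4 CPM, all of the latter above the fed median. Of the fasted controls 9 of 10 were above the fed control median of 45.9 CPM. In controls the value was 0.20 (adjusted p = 0.03875) in replicates 1 to 5 and 0.06 (adjusted p = 0.681) in replicates 6 to 10. In S662D mice it was 0.27 (adjusted p = 0.03432) with the additional digit and -0.01 (adjusted p = 0.9985) without it.

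Bdnf (chr2:109674700-109727007, plus strand), a growth factor made in ventromedial and paraventricular neurons whose loss causes obesity in mice, showed the same split. It was at 18.9, 15.1, 16.7, 14.0 and 17.1 CPM in fed and 15.1, 21.2, 20.54, 20.95 and 20.14 CPM in fasted S662D libraries. Fasted replicate 1 lay within the fed range and the other 4 above it. The fasting value was 0.27 in S662D (SE 0.11, adjusted p = 0.2489) and 0.13 in controls (SE 0.08, adjusted p = 0.5502); in S662D it was 0.46 with the additional digit (adjusted p = 0.04778) and -0.03 without it (adjusted p = 0.9985). Fasted control replicates 1 to 5 held 22.3 ± 1.58 CPM (SD, n = 5) and replicates 6 to 10 17.9 ± 2.65. Of the exon bases of Bdnf, 14.4% lie in the antisense gene Gm45346, and without strand those reads cannot be told apart. Among 12 neuronal activity genes, Fosb and Dusp1 rose on fasting in controls (0.70 and 0.48) and Dusp1 in S662D mice (0.60), and their part in the values of Bdnf and Adcyap1 was not tested.

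Nucb2 (chr7:116504369-116540584, plus strand), the precursor of the satiety peptide nesfatin-1, was at 15.6 ± 1.48 CPM in fed and 15.5 ± 1.22 CPM in fasted controls (SD, n = 10 each), so fasting moved it by -0.01 (95% interval -0.15 to 0.12). Fasted S662D libraries were at 16.2, 13.6, 9.76, 11.5 and 14.8 CPM, with 4 of 5 below the control median. Against controls, S662D mice differed by -0.19 when fed (SE 0.08, adjusted p = 0.1747). When fasted the value was -0.23 (SE 0.08, adjusted p = 0.0905). The fasted value passed without S662D fasted replicate 1 (-0.31, adjusted p = 0.01235) or 5 (-0.27, adjusted p = 0.04312). In the libraries carrying the digit it was -0.41 (adjusted p = 0.001054), and -0.004 in those without it (adjusted p = 0.9968), the split along which the fasted hypothalamic neuron marker sums also fell; their part in the Nucb2 and Penk values was not tested.

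Penk (chr4:4133531-4138819, minus strand), which encodes the enkephalins, was at 53.8, 53.3, 41.9, 41.1 and 48.0 CPM in fasted S662D mice and at 56.8, 54.5, 54.7, 58.0 and 53.6 CPM in the libraries labelled Per2 knockout. The difference of 0.22 (SE 0.08) had an adjusted p of 0.0959, which fell to 0.03862 without S662D fasted replicate 1 (0.27). Fasting moved Penk by 0.06 in controls (95% interval -0.06 to 0.18) and by -0.13 in S662D mice (-0.30 to 0.03). The antisense gene A830012C17Rik covers 14.3% of its exon bases, so its counts are uncertain. The share of its reads that this affects was not counted.

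Gal and Nts, which mark neurons of the lateral hypothalamus among others, passed no test. Gal (chr19:3409919-3414472, minus strand) was at 14.8 ± 2.69 CPM in fed and 15.8 ± 2.29 CPM in fasted controls, and its fasting value was 0.09 in controls (95% interval -0.11 to 0.29) and -0.20 in S662D mice (-0.48 to 0.07). Nts (chr10:102481760-102490418, minus strand) was at 10.6, 12.5, 15.1, 18.9 and 16.5 CPM in fed and 9.99, 11.4, 12.8, 9.15 and 13.9 CPM in fasted S662D libraries. All 5 fasted libraries were below the fed median, a difference of -0.36 in log2 units (SE 0.18, 95% interval -0.73 to 0.01, adjusted p = 0.3675). In controls it was -0.10 (95% interval -0.36 to 0.17).

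Cck (chr9:121489824-121495694, minus strand), the most abundant member and a satiety peptide of gut and brain, had nearly equal group means of 108.2 to 113.3 CPM. Its values ran from -0.06 to 0.07 in the 7 comparisons, with 95% intervals within -0.23 to 0.26. Fasted control replicates 1 to 5 were at 98.0 ± 8.22 CPM and replicates 6 to 10 at 121 ± 8.30 CPM (SD, n = 5 each), and the lowest of the latter (111.7 CPM) lay above the highest of the former (108.6 CPM). Against replicates 1 to 5 alone, S662D was 0.21 higher (adjusted p = 0.03836) in the fasted state. The spread between the 2 control sets was thus larger than any difference between the groups.

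Nmu (chr5:76333495-76363788, minus strand) encodes neuromedin U, a satiety peptide. It had 142 counts in all, 0 to 10 per library, with 0 in 2 libraries, and group means of 0.168 to 0.275 CPM. A count of 0 still allows up to 3 counts. When genes were kept at any count above 0, its values were 0.03 to 0.70 over the comparisons with adjusted p of 0.797 or more (edgeR), and differences were not detectable at this depth.

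**Figure D4:**
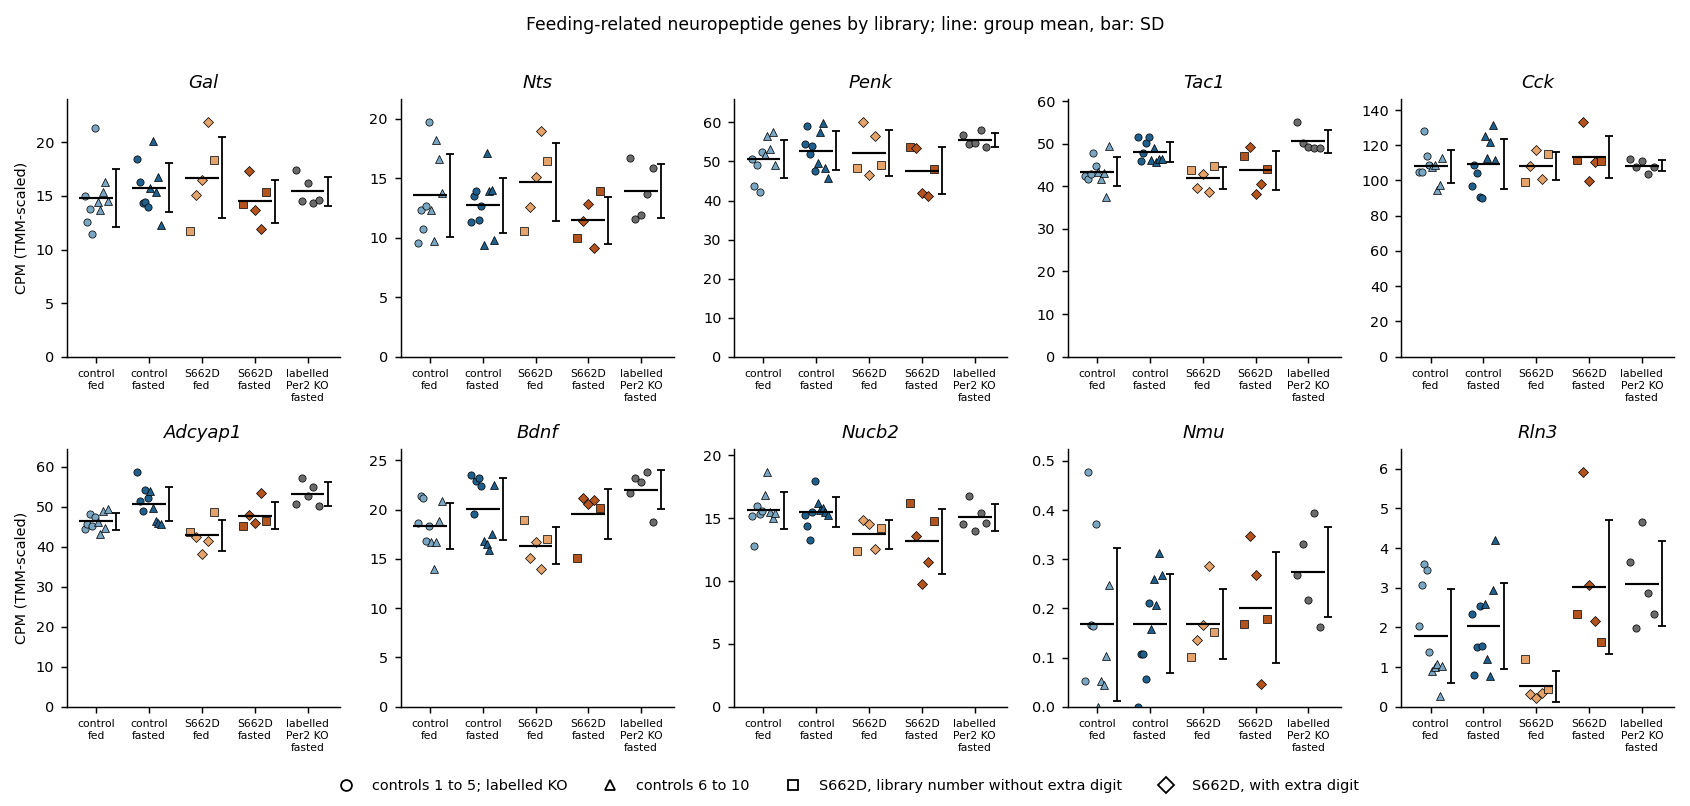
CPM of the 10 peptide genes, 1 point per library, with the group mean (line) and SD (bar) in 5 groups; symbols give the library set. Rln3 is lowest in fed S662D mice (0.221 to 1.21 CPM), and Cck has group means of 108.2 to 113.3 CPM.

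The genes whose residual levels followed each member most closely were listed as a description over 35 libraries after the group means were subtracted, among genes of at least 5 CPM. For Gal they were Ecel1 (r = 0.79), Ngb (0.79) and Trh (0.72), the thyrotropin-releasing hormone gene; for Nts Dlx1 (0.72), Lamp5 (0.70) and Lhx6 (0.69), genes known from GABA neurons. For Cck they were Tnnt1 (0.82), one of the thalamic markers used here, Uqcc3 (0.82) and Cacng7 (0.82), and for Bdnf Atf4 (0.77), Cdkn1a (0.73) and Hsd17b12 (0.73). For Rln3 they were Aldoc (0.79), Slc30a3 (0.77) and Adssl1 (0.77). Lower values held for Penk (Dclk3 0.69, Usp11 0.69 and Meis2 0.68), Tac1 (Cops5 0.71, Rheb 0.69 and Uqcrfs1 0.69), Nucb2 (Rian 0.69, Atp1b3 0.68 and Pcnp 0.63) and Adcyap1 (Churc1 0.67, Tnfaip1 0.60 and Mff 0.59). Among the members, Gal and Nts went together (r = 0.65), as did Gal and Penk (0.53), while Rln3 and Penk went in opposite directions (-0.51). These points share libraries, depth and dissection.

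Of 24 receptor genes 21 were tested. The receptor with the highest level for each peptide was Ntsr2 for neurotensin (268 ± 15.1 TPM), Ntrk2 for BDNF (151 ± 10.8), Adcyap1r1 for PACAP (124 ± 12.4), Tacr3 for tachykinins (9.85 ± 0.878), Cckbr for cholecystokinin (7.54 ± 0.673), Oprk1 among the opioid receptors (5.78 ± 0.661), Rxfp3 for relaxin-3 (4.99 ± 0.763), Galr1 for galanin (4.84 ± 0.936) and Nmur2 for neuromedin U (1.14 ± 0.287; SD, n = 35). The tachykinin and opioid receptors were ranked as families, not for the peptides of Tac1 or Penk alone. Tacr1 had 5.245 ± 0.591 TPM, Oprd1 3.43 ± 0.4985 and Oprm1 2.19 ± 0.659. Nesfatin-1 has no settled receptor and was left without one. Adcyap1r1 fell on fasting in controls by 0.11 on the log2 scale (SE 0.03, adjusted p = 0.04869), from 328 ± 19.5 to 305 ± 11.02 CPM. This call was kept in 8 of 20 fits without 1 library and lost, with adjusted p of 0.05723 to 0.1187, without control fed replicate 1, 6, 7, 8 or 9 or control fasted replicate 1, 3, 4, 5, 8, 9 or 10. The value was -0.04 in control replicates 1 to 5. In S662D mice Adcyap1r1 moved by -0.13 (SE 0.05, adjusted p = 0.1411).

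The mu opioid receptor Oprm1 was higher in fed S662D mice (9.03 ± 2.96 CPM) than in fed controls (6.00 ± 1.33), by 0.60 (SE 0.17, adjusted p = 0.03654). The call was lost without control fed replicate 1, 2, 3, 4 or 5 or S662D fed replicate 2, 3 or 4 (adjusted p 0.05408 to 0.2486). The Oprm1 value was 0.05 (adjusted p = 0.9991) in the libraries without the additional digit and 0.09 (adjusted p = 0.9566) with the digit as a term. Ngfr, the p75 neurotrophin receptor, was lower in the libraries labelled Per2 knockout than in fasted S662D mice, by -0.55 (SE 0.17, adjusted p = 0.03963), and lost its call without labelled knockout replicate 2, 3, 4 or 5 or S662D fasted replicate 1, 2 or 4 (adjusted p 0.05507 to 0.1303). Rxfp3 was called in no comparison. On fasting in controls 12 of 21 receptors had a positive and 9 a negative value, with a median of 0.01 beside 0.00 over all genes.

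Of the peptide processing and dense-core granule genes all 16 were tested, and Vgf was called on fasting in both genotypes. Vgf, a granin-like peptide precursor known to respond to energy state, rose on fasting from 235 ± 16.6 to 305 ± 33.1 CPM in controls (log2 fold change 0.37, SE 0.07, adjusted p = 0.00016) and from 268 ± 32.04 to 343 ± 52.0 CPM in S662D mice (0.36, SE 0.09, adjusted p = 0.02121). The control call was kept in all 20 fits without 1 library; the S662D call was lost without S662D fed replicate 1, 2 or 5 or fasted replicate 2 or 3 (adjusted p 0.06269 to 0.09661). In controls Vgf was 0.24 (adjusted p = 0.1585) in replicates 6 to 10. Secretogranin Scg2 (0.14, SE 0.04, adjusted p = 0.01959) and the convertase Pcsk1 (0.20, SE 0.05, adjusted p = 0.02393) rose on fasting in controls. Pcsk1 was 0.03 (adjusted p = 0.847) in replicates 6 to 10, and its call was lost without control fed replicate 3 or 8 or control fasted replicate 1, 3, 4 or 5 (adjusted p up to 0.06749). Qpct, which forms the pyroglutamate end of neurotensin, fell on fasting in S662D mice by 0.29 (SE 0.07, adjusted p = 0.01253), a call lost without S662D fed replicate 4 (adjusted p = 0.06909) or fasted replicate 4 (0.05924).

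Between genotypes in the fasted state, Scg2 was lower in S662D than in controls (577 ± 62.2 against 660 ± 31.6 CPM, -0.19, SE 0.05, adjusted p = 0.009791) and Pcsk1n, the convertase inhibitor proSAAS, higher (0.27, SE 0.06, adjusted p = 0.004753). Without S662D fasted replicate 4 the Scg2 value was -0.14 (adjusted p = 0.1001), and without replicate 2 that of Pcsk1n was 0.19 (adjusted p = 0.0669). The libraries labelled Per2 knockout, against the same S662D mice, were higher in Scg2 (0.27, adjusted p = 0.001279) and Pcsk1 (0.30, adjusted p = 0.01075) and lower in Pcsk1n (-0.29, adjusted p = 0.006025), each called in all 10 fits without 1 library. With the additional digit as a term in the fit, adjusted p for these 5 calls were 0.1129 to 0.6648. Calls over all genes then fell from 1007 to 20 for S662D against controls and from 1323 to 42 for the labelled knockout against S662D. In each of the 7 comparisons 13 to 16 of the 16 genes were not called.

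Of 16 related peptides and growth factors 13 were tested and 1 was called. Ntf3, neurotrophin-3, was lower in fed S662D than in fed control mice (0.334 ± 0.143 against 0.729 ± 0.330 CPM, -1.09, SE 0.30, adjusted p = 0.02959), which was lost without control fed replicate 2 or 5 or S662D fed replicate 2, 3 or 4 (adjusted p 0.0507 to 0.128). Among the 10 peptidases, all tested, the enkephalin-degrading neprilysin gene Mme was lower in S662D than in control mice, by -0.35 when fed (SE 0.08, adjusted p = 0.00717) and by -0.25 when fasted (SE 0.08, 0.04033). Ece1, an endothelin-converting enzyme also found in endothelium, was higher by 0.30 (adjusted p = 0.0002581) and 0.17 (adjusted p = 0.03638). Ece1 was lower in the labelled knockout than in fasted S662D mice (-0.24, SE 0.06, adjusted p = 0.008901), which was lost without S662D fasted replicate 4 (-0.19, 0.06169). Endothelial markers moved the same way, higher in S662D in 2 of 3 genes fed and 3 of 3 fasted, and lower in 3 of 3 in the labelled knockout against S662D. Their part was not tested. The fed Ece1 call was kept in 15 of 15 fits without 1 library and the fed Mme call in 13 of 15, lost without S662D fed replicate 3 (adjusted p = 0.05363) or 4 (0.07877); the fasted Ece1 call was lost without control fasted replicate 3, 5, 8, 9 or 10 or S662D fasted replicate 2 or 4 (adjusted p 0.0519 to 0.2574), and the fasted Mme call without control fasted replicate 2, 4, 5, 6 or 9 or S662D fasted replicate 2, 3, 4 or 5 (0.05386 to 0.1201). With the additional digit as a term none of these 4 calls was kept, with adjusted p of 0.196 to 0.7531. Only S662D libraries carry that digit, and with the term calls over all genes fell from 846 to 23 fed and from 1007 to 20 fasted.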

How the data were processed

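Hypothalamic polyA RNA of 35 mice was sequenced as paired-end reads of 150 bases. The authors deposited raw counts per gene name, made with featureCounts 2.0.1 against GENCODE vM12 (mm10) with multi-mapping alignments counted and no strand, per the file headers; STAR 2.7.10b and Subread are listed per the submitters' processing notes. Of 49568 gene names, 36082 had a count. No pair among 120 pairs of libraries within groups agreed within sampling noise (lowest chi-square per degree of freedom 2.53), so each library counted as 1 replicate. The p-values set each difference against the spread between libraries within groups. That spread includes differences between the control sets and between S662D libraries with and without the additional digit.

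Genes were kept with filterByExpr (minimum count 10), scaled with TMM and fitted over all 35 libraries with a mean per group in edgeR 4.0.16 (glmQLFit robust, glmQLFTest; R 4.3.3). P-values were adjusted over 18063 genes, and calls were made below 0.05. CPM uses TMM-scaled totals; TPM uses the exon lengths in the deposited tables. Intervals are at 95%. The gene lists, and the named genes (all members, called list genes, the highest receptor per member and the 3 genes most like each member), were chosen with earlier results of these data known. On simulated counts for 18063 genes, fasting in controls recovered 72% of genes changed by 0.5 and 95% of those changed by 1 on the log2 scale, and fasting in S662D 60% and 86%. False calls numbered 10 and 14. Apart from the set changes the simulation gave each gene 1 mean over all libraries, so it held no differences between library sets. Coordinates are those of the count tables; promoters and motifs come from RefSeq (GRCm38.p6). Alternatives used DESeq2 1.42.0, other scaling, no filter, fewer groups, library sets and left-out libraries; those for genes that are not members were chosen after seeing the data. Python 3.11.15, pandas 2.3.3 and matplotlib 3.10.9 were used. The value of 1 marker gene is not reported here.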

Additional observations from a re-analysis of the deposited data

Results flagged for a closer look

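Within groups of 5 or 10 libraries, 4 of 50 combinations of peptide gene and group held a library that lay far from the rest by Dixon's gap test at the 95% level, which chance gives in about 1 of 20. Gal was at 21.35 CPM in fed control replicate 5, with the next control at 16.34. Tac1 was at 55.05 CPM in labelled Per2 knockout replicate 1, above 50.22 in the next library, and without it the difference from S662D was not called. Bdnf was at 15.1 CPM in fasted S662D replicate 1, with the others from 20.14 CPM up. Rln3 was at 1.213 CPM in fed S662D replicate 1, with the others at 0.4568 CPM or less; that library also held 212.6 CPM of midbrain and hindbrain markers, and how far the 2 belong together was not tested.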

How the results depend on the processing

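The 63 log2 fold changes of the members gave 1638 alternative values, of which 1591 stayed on the same side of the threshold; 66 of these, in 23 of the 63, changed sign where the reported value had an unadjusted p of at least 0.05. Members called changed as follows. For fasting in controls the count was 1 with DESeq2 (Tac1), with only the groups compared (Tac1) and in control replicates 1 to 5 (Adcyap1), and 0 to 1 without 1 library. The first 3 of these fits called 4.54%, 4.3% and 7.21% of all genes. For fasting in S662D it was 0 without the additional digit (0.0277% of all genes) and 3 with it (Adcyap1, Bdnf and Rln3, beside 3.81% of all genes). For the difference between responses it was 1 with control replicates 1 to 5 (Rln3), where 2.67% of all genes were called. For S662D against controls, fed, it was 0 without a filter (1.67% of 36082 genes), with DESeq2 (7.89%) and with only the groups compared (5.17%). DESeq2 gave Rln3 no adjusted p there. It was also 0 with control replicates 6 to 10 (0.183%), without the additional digit (0.0886%) and when the digit was a term (0.127%). With the digit it was 2 (Adcyap1 and Rln3, beside 17.3% of all genes), and without 1 library 0 to 1. Fasted, it was 1 without scaling (Nucb2), with control replicates 1 to 5 (Cck) and with the digit (Nucb2), and 0 to 1 without 1 library. The first 3 of these fits called 5.66%, 9.3% and 17.4% of all genes. For the labelled knockout against S662D it was 0 without a filter (2.51% of 36082 genes) and with only the groups compared (2.42%). It was also 0 without the digit (0.155%) and when the digit was a term (0.233%). With the digit it was 3 (Penk, Tac1 and Nucb2, beside 16.6% of all genes), and without 1 library 0 to 2. The labelled knockout against controls gave 0 in every alternative. Without the digit Adcyap1 (-0.010) and Bdnf (-0.027) on fasting in S662D and Nucb2 (-0.034) in the labelled knockout against S662D reversed.

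Replicate numbers were not taken to pair the samples, since in no pair of groups was every correlation above 0.1: correlations of same-numbered deviations were -0.19 to 0.06 between fed and fasted controls, with 0 of 10 above 0.1, -0.11 to 0.16 between fed and fasted S662D, with 2 of 5 above it, and -0.05 to 0.24 between S662D and control mice, fed, with 3 of 5 above it. Between fasted groups they were -0.02 to 0.10 for S662D and controls (1 of 5), -0.14 to 0.05 for the labelled knockout and controls (0 of 5) and -0.14 to 0.02 for the labelled knockout and S662D (0 of 5). At most 1 sample per pair of groups correlated best with its own number. With the replicate number as a block, S662D against controls, fasted, called 1 member (Cck, beside 7.34% of all genes) and the labelled knockout against S662D 0 (1.2%).

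Counts over all genes moved by over 1.5 times as follows. The replicate block gave 2284 in place of 846 for S662D against controls, fed, and 217 in place of 1323 for the labelled knockout against S662D. With only the groups compared, fasting in S662D gave 281 in place of 476, S662D against controls, fasted, 297 in place of 1007, and the labelled knockout 437 against S662D and 3 in place of 5 against controls; DESeq2 gave 1426 for S662D against controls, fed. Control replicates 1 to 5 and 6 to 10 gave 1303 and 298 for fasting in controls in place of 701, 1711 and 33 for S662D against controls, fed, 1679 and 43 fasted, and 2 and 104 for the labelled knockout; replicates 1 to 5 gave 482 for the difference between responses. S662D libraries without the digit gave 5 for fasting, 16 and 21 against controls, fed and fasted, and 28 against the labelled knockout; those with it gave 3128, 3147 and 2998 for the last 3 and 9 for the difference between responses; the digit as a term gave 23, 20 and 42. Without 1 library, counts were 66 to 1671 for S662D against controls, fed, 156 to 1799 fasted, and down to 529 for the labelled knockout against S662D and 308 for fasting in S662D. The additional digit occurs only in S662D libraries, so as a term it partly overlaps with genotype. The causes were not tested. Depth limits Nmu and, at 4 to 153 counts per library, Rln3.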
